A study of Rattus norvegicus with 20 samples.

Results

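Cytosolic ribosomal proteins are the protein components of the large and small subunits of the ribosome that works in the cytoplasm. Members were taken from the deposited gene table by their protein name. A gene entry belonged when its name began with "60S ribosomal protein", "40S ribosomal protein", "Large ribosomal subunit protein" or "Small ribosomal subunit protein" and did not contain "mitochondrial". The rule found 227 of 15503 gene entries, carrying 75 protein names, and all but 1 passed the filter on low counts. The entry that did not pass, 1 named for Rpl13 (ENSRNOG00000062895), had a mean of 0.0388 FPKM. For 68 entries, 39 of the large and 29 of the small subunit, the symbol of the gene itself could be assigned, and these are called the named members. At most 1 entry per protein name took a symbol. It had to lie on the gene's chromosome in RefSeq and span at least 1000 bases. For 7 of the 75 protein names no entry took a symbol. The other 159 entries carry ribosomal protein names but no assigned gene symbol. Of these 159, 131 spanned under 1000 bases, so the rule for symbols kept them out whatever their structure. A transcript length of at least 80% of the span, as entries without introns have, was found for 126 of the 159. Their reads can be shared with the named gene of the same protein, so levels of near-identical copies are uncertain. Ribosomal proteins P0, P1 and P2, Rps27a, Fau and Rack1 lie outside the name rule. Those that were measured are counted separately among the neighbours in the pathway, and not each is described.

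RNA was sequenced from cultures labelled neonatal rat cardiomyocytes after 72 h under 4 conditions, with 5 libraries each. The conditions were PBS, the vehicle; histidine at 100 nM; doxorubicin at 1 µM, an anthracycline that poisons topoisomerase II; and both compounds together. All 4 groups carry the same cell type label and the same time. The labels name no strain, no animal age beyond neonatal and no purification step, and nothing in them says that the 5 libraries of a group were separate cultures. The p-values therefore rest on library-to-library spread alone, and that spread may be technical.

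A ribosome holds each of its proteins in a fixed proportion to ribosomal RNA, and cells make the proteins from long-lived, abundant mRNAs. In mammals most of these mRNAs begin with a C followed by an unbroken run of pyrimidines, the 5′ terminal oligopyrimidine (TOP) tract, through which mTOR and the protein LARP1 set how much of them is translated and how long they last. When ribosome assembly fails, unassembled Rpl5 and Rpl11 bind Mdm2 together with the 5S ribosomal RNA. Heart muscle cells raise ribosome production as they grow.

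The start of the transcript is shown for 8 members on which the comparisons below turn, because the TOP tract is what the family is known to share and the rule did not use it. Each sequence runs from 10 bases before the annotated start to the 20th base from it, in RefSeq's annotation of GRCr8, and capitals mark a run of C followed by at least 4 C or T that starts within 10 bases of the annotated start. Only the strand of the gene was searched. Where several runs qualified, the one whose first C lies closest to the annotated start was taken, and any C or T before that base was not counted.
Rps27 (chr2:177964587-177964616, minus strand): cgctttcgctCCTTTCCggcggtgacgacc
Rpl22 (chr5:168117951-168117980, plus strand): gcgcccccctCCCTTTCTgcctcctctgcc
Rpl10 (chrX:157205840-157205869, plus strand): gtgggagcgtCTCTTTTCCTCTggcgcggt
Rpl13 (chr19:68062504-68062533, plus strand): cggtgcccgatCCTTTCCgctcggccgttc
Rpsa (chr8:128728869-128728898, plus strand): ccgcgctaccctggaacgggtccgtacggc
Rpl18 (chr1:105325260-105325289, plus strand): acctggtctagcaggaggcgccatcatggt
Rps27l (chr8:76443648-76443677, plus strand): ttcatttgtcattatttgtggtgtccagag
Rpl22l1 (chr2:113683186-113683215, plus strand): gtggatatccggttccgagttgcgcagcgc
Rps27, Rpl22 and Rpl10 start exactly with such a run, in Rpl13 it starts 1 base later, and the windows of Rpsa, Rpl18, Rps27l and Rpl22l1 hold none. Of the 55 named members with an entry in the RefSeq promoter table, 19 (34.55%) started exactly with the run, against 2.63% of all 27457 promoters in it. Within 10 bases on either side, 41 of the 55 (74.55%) held a run, against 28.81% of all promoters. Counted in that way, the longest run was 20 bases and the median 7. These matches describe letters around annotated starts, which can lie some bases from the start used in these cells.

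The libraries held 53246205 to 83624651 counts each. Doxorubicin replicate 4 stood apart from the other 19 libraries: genes under 800 bases that are no member took 2.61% of its counts against 1.17 to 1.30% in the other doxorubicin libraries, and genes over 5000 bases 20.5% against 30.7 to 32.9%. Results that rest on it are therefore given with and without it. Markers of several cell types were present. Summed over 11 measured cardiomyocyte markers the level was 875 to 1024 CPM (counts scaled to library size with TMM factors) with PBS and 149 to 186 CPM in the doxorubicin libraries, whereas 9 fibroblast markers summed to 102572 to 107774 and 64955 to 98009 CPM. Macrophage and leukocyte markers fell from 2647 to 2807 CPM with PBS to 65.2 to 145 CPM with doxorubicin, and markers of dividing cells from 686 to 734 CPM to 45.7 to 108 CPM. All 10 macrophage and all 8 dividing-cell markers were lower by the test in doxorubicin against PBS. In bulk samples fewer cells of a type and less RNA per cell cannot be told apart, and the part of these shifts in the ribosomal protein results was not tested.

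Cytosolic ribosomal proteins were among the abundant mRNAs of these cells, and their levels per length differed by over an order of magnitude between members. FPKM scales reads by gene length and library size, so it is the unit in which members can be compared. Mean FPKM over the 20 libraries was highest for Rps20 (1330), Rps2 (1059) and Rpl13a (1051), of which Rps20 and Rps2 belong to the small subunit. The lowest named members were Rpl7l1 (47.4), a paralog of Rpl7 that works in ribosome assembly, then Rpl22 (85.5) and Rpl35a (117). The highest was 28.1 times the lowest, and 41 of 68 named members exceeded 500 FPKM. The median was 507 FPKM for the large and 700 FPKM for the small subunit, although an intact ribosome holds 1 copy of nearly every protein. With PBS, Rps20 was at 1149 ± 47.1 FPKM (SD, n = 5), Rps2 at 1035 ± 36.8, Rpl13a at 942.5 ± 32.9, Rpl35a at 97.6 ± 2.71, Rpl22 at 82.2 ± 3.11 and Rpl7l1 at 46.4 ± 1.49. In the order with PBS, Rps20 and Rps2 stood apart from the next member by more than both SDs, as did the 3 at the low end, but Rpl13a did not differ beyond the spread from Rpl19 (935.8 ± 14.0). The 159 other entries had a median of 9.34 FPKM and a highest value of 472.5, and 74 were under 5 CPM.

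**Figure D1:**
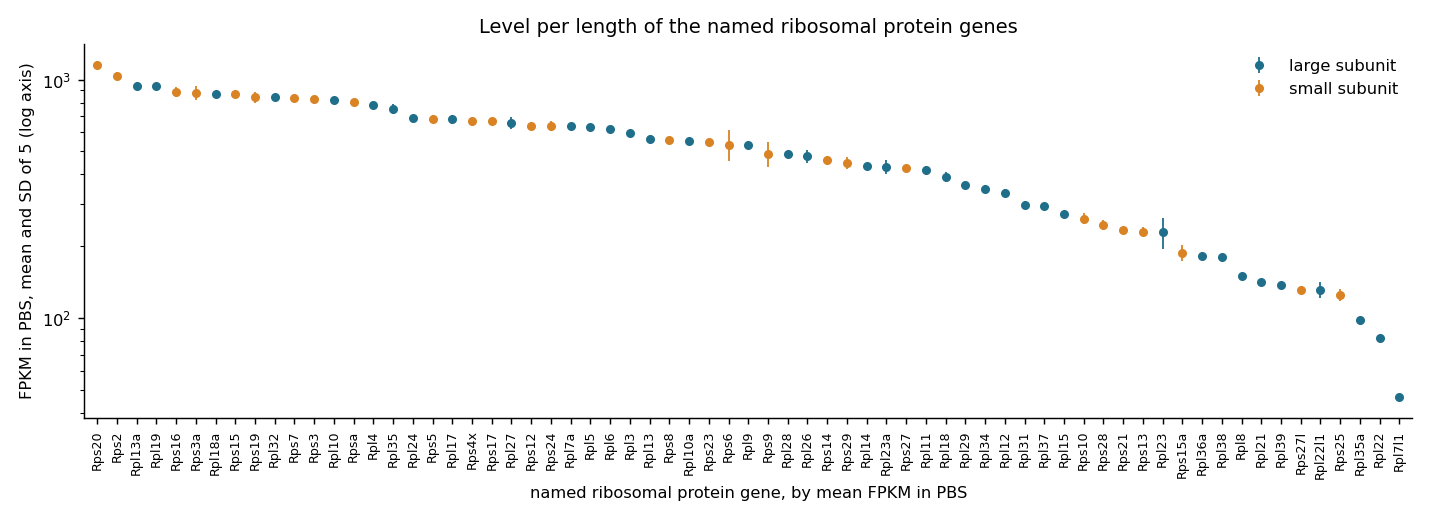
Mean FPKM of the named members with PBS, in order, on a log axis. Bars are the SD of 5 libraries and colours the subunit. Rps20 at 1149 and Rpl7l1 at 46.4 FPKM mark the ends of the order with PBS.

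The summed level of all members was nearly even over 19 libraries and high in 1. In PBS replicates 1 to 5 it was 37424, 35837, 37471, 37932 and 37228 CPM. With histidine it was 38128, 38394, 36390, 41358 and 38743 CPM. The doxorubicin libraries had 35048, 36662, 35795, 96229 and 36320 CPM, and those with both compounds 36314, 33613, 35836, 35502 and 36083 CPM. Doxorubicin replicate 4 lay far above every other library, and the other 4 doxorubicin libraries overlapped with PBS. Group means were 37178 ± 793 with PBS, 38603 ± 1787 with histidine, 35470 ± 1081 with both compounds and 48011 ± 26962 with doxorubicin (SD, n = 5), the last falling to 35956 ± 703 (n = 4) without replicate 4. As a share of all counts, members took 3.62% with PBS, 3.82% with histidine, 3.65% with both compounds, 3.72% in 4 doxorubicin libraries and 8.68% in doxorubicin replicate 4. Small differences in the summed level depended on the scaling: with both compounds the mean was 0.954 times that with PBS in TMM-scaled CPM, 1.01 times with counts divided by library totals alone and 1.02 times in summed FPKM.

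**Figure D2:**
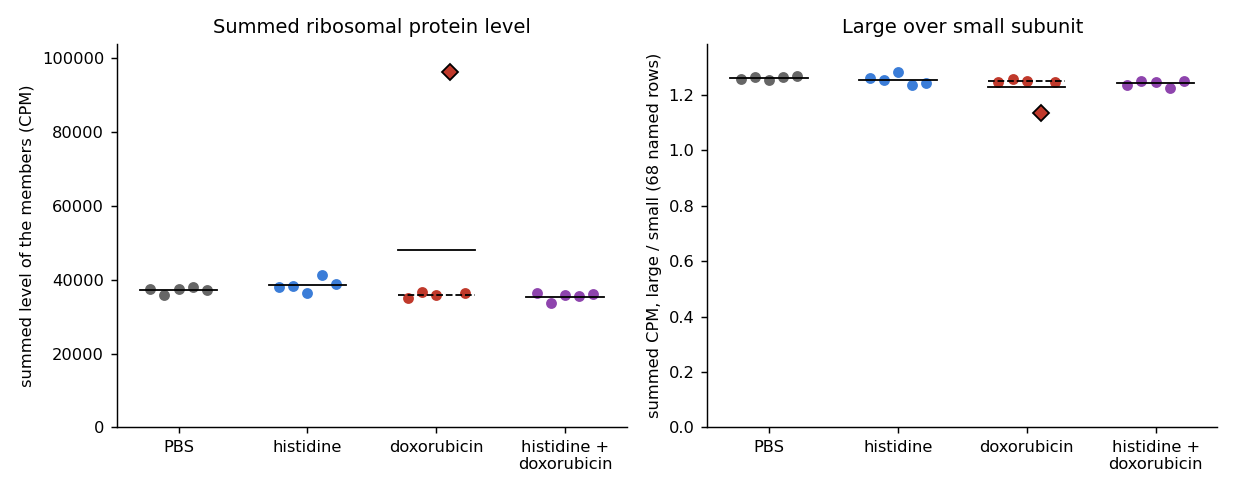
Summed CPM of the members, and the ratio of large to small subunit named members, in each of the 20 libraries by group. Points are libraries, the diamond is doxorubicin replicate 4, the solid line is the mean of 5 and the dashed line the mean without that replicate. The diamond sits at 96229 CPM and all other libraries between 33613 and 41358 CPM.

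The balance of the subunits moved by small amounts outside doxorubicin replicate 4. The summed CPM of the 39 named large subunit members over that of the 29 named small subunit members was 1.262 ± 0.006 with PBS, 1.255 ± 0.018 with histidine and 1.242 ± 0.010 with both compounds (SD, n = 5). In doxorubicin replicates 1, 2, 3 and 5 it was 1.251 ± 0.006, and in replicate 4 it was 1.134. All libraries with both compounds (1.2262 to 1.2503) were below all PBS libraries (1.254 to 1.269), whereas the other 4 doxorubicin libraries (1.245 to 1.259) overlapped with PBS. In summed FPKM the 5 doxorubicin libraries (0.917 to 1.045) and those with both compounds (1.010 to 1.033) were all below PBS (1.046 to 1.064). Histidine libraries overlapped with PBS in both units. In doxorubicin replicate 4 the named small subunit members were summed to 2.79 times and the named large subunit members to 2.52 times the mean of the other doxorubicin libraries.

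In doxorubicin replicate 4 every named member was above the mean of the other 4 doxorubicin libraries, by very unequal factors. The ratio ran from 1.27 for Rpl6 to 7.30 for Rpl22l1, with a median of 2.77. It exceeded 4 for 16 of the 68 and was under 2 for 18. Rps24 at 6.47, Rps27 at 6.22, Rpl23 at 6.06 and Rpl39 at 5.94 stood near the top, and Rpl7l1 at 1.35, Rpl8 at 1.41 and Rpl3 at 1.44 near the bottom. The unnamed entries moved with the named gene of the same protein. Over the 77 entries with at least 5 CPM and a named gene of the same protein, Pearson's r of the log2 ratio with that gene was 0.84, and 64 lay within 0.5 of it. These pairs can share reads, and the value is a description.

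Short genes outside the family were also high in that library. Among other protein-coding genes the median log2 ratio was 1.34 for transcript lengths of 500 to 800 bases, 1.13 for 800 to 1000, 0.71 for 1000 to 1500, 0.14 for 2000 to 3000 and -0.46 above 5000. Against these, the median of the named members was higher by 0.34 (25 members) at 500 to 800 bases, 0.49 (18 members) at 1000 to 1500 and 0.85 (6 members) at 2000 to 3000. At 800 to 1000 bases, with 11 members, it was -0.02 from that of other genes. Over all lengths the 73 mitochondrial ribosomal proteins had a median of 0.66, the named members 1.47 and other genes -0.02. By length the mitochondrial set had 1.95 at 500 to 800 bases (4 genes) and 0.84 at 1000 to 1500 (27 genes). The named members had 1.68 and 1.20 there. Over the 68 named members, which come from the same libraries, Pearson's r between log2 length and log2 ratio was -0.35. In each of the other 19 libraries the members' median log2 ratio to the rest of the group was between -0.14 and 0.10. Length moved with the result in this library, and its part in the result was not tested.

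**Figure D3:**
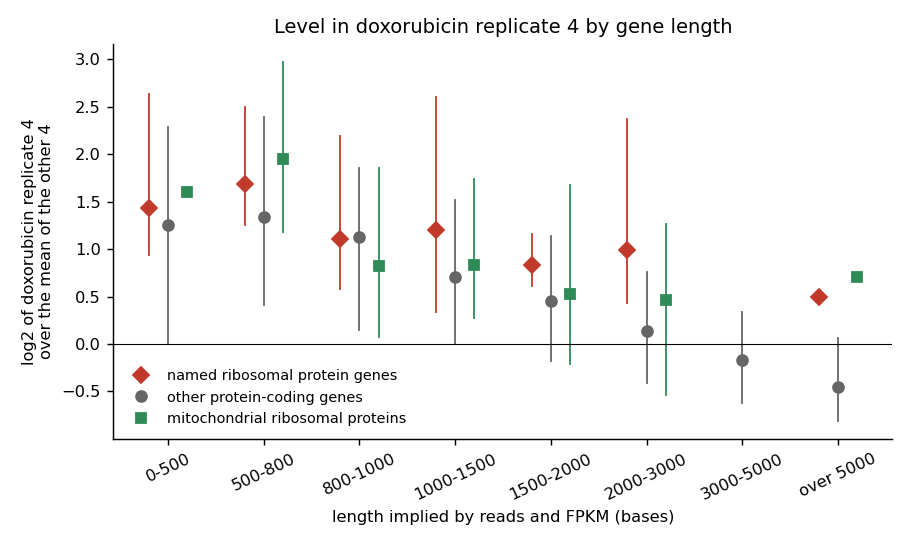
Log2 ratio of doxorubicin replicate 4 to the mean of the other 4 doxorubicin libraries by transcript length, for named members, mitochondrial ribosomal proteins and other protein-coding genes. Points are medians and lines span the 10th to 90th percentile, or the full range where a class holds under 20 genes. The median of other genes falls from 1.34 at 500 to 800 bases to -0.46 above 5000 bases.

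Doxorubicin against PBS gave opposite pictures with and without that library. With all 20 libraries, edgeR's quasi-likelihood test with Benjamini-Hochberg adjustment called 32 of the members past the filter higher and 1 lower. Of all 15449 genes 43.2% were called, 21.7% higher and 21.5% lower. The members' median log2 fold change was 0.43, and that of all genes was 0.05. Without doxorubicin replicate 4, 10 members rose and 26 fell, where 47.2% of all genes were called, 22.9% higher and 24.4% lower, and the median was -0.04 against 0.01 for all genes. Among the named members, 13 higher and 0 lower became 6 higher and 16 lower. Of the 32 called higher with all libraries, 10 were still called higher. Of the 26 that fell without replicate 4, 20 had been above 0 with it. The share of members called was 14.6% with all libraries and 15.9% without replicate 4, each below the background, and the largest fall of a named member was 0.34 and the largest rise 0.26 on the log2 scale. The count of 33 with all libraries also moved when other libraries were left out. It was 20, 14, 18 and 18 without PBS replicates 1, 2, 3 and 5, and 62, 55, 62 and 68 without doxorubicin replicates 1, 2, 3 and 5. Without both doxorubicin replicates 3 and 4 it was 25, with 8 higher and 17 lower, where 43.1% of all genes were called. Replicate 3 had the lowest smooth muscle and pericyte marker sum of its group.

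The direction of these small changes depended on the scaling. Without doxorubicin replicate 4, DESeq2's size factors gave 10 higher and 25 lower, and TMM computed without the members 10 and 26, but library totals alone gave 25 higher and 6 lower, where 49.7% of all genes were called, 29.9% higher and 19.8% lower. Library totals moved the median of all genes from 0.01 to 0.09 and that of the members from -0.04 to 0.05. Relative to the median of all genes the members lay at -0.0457 with TMM and -0.0449 with totals. In all 4 scalings 10 members were called higher and 6 lower, of 226 past the filter, against 22.5% and 19.8% of all genes. The named ones among them included Rps27l, Rps29, Rps28, Rps12 and Rpl7a, higher, and Rpl13, Rps14, Rpl18 and Rpsa, lower.

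**Figure D4:**
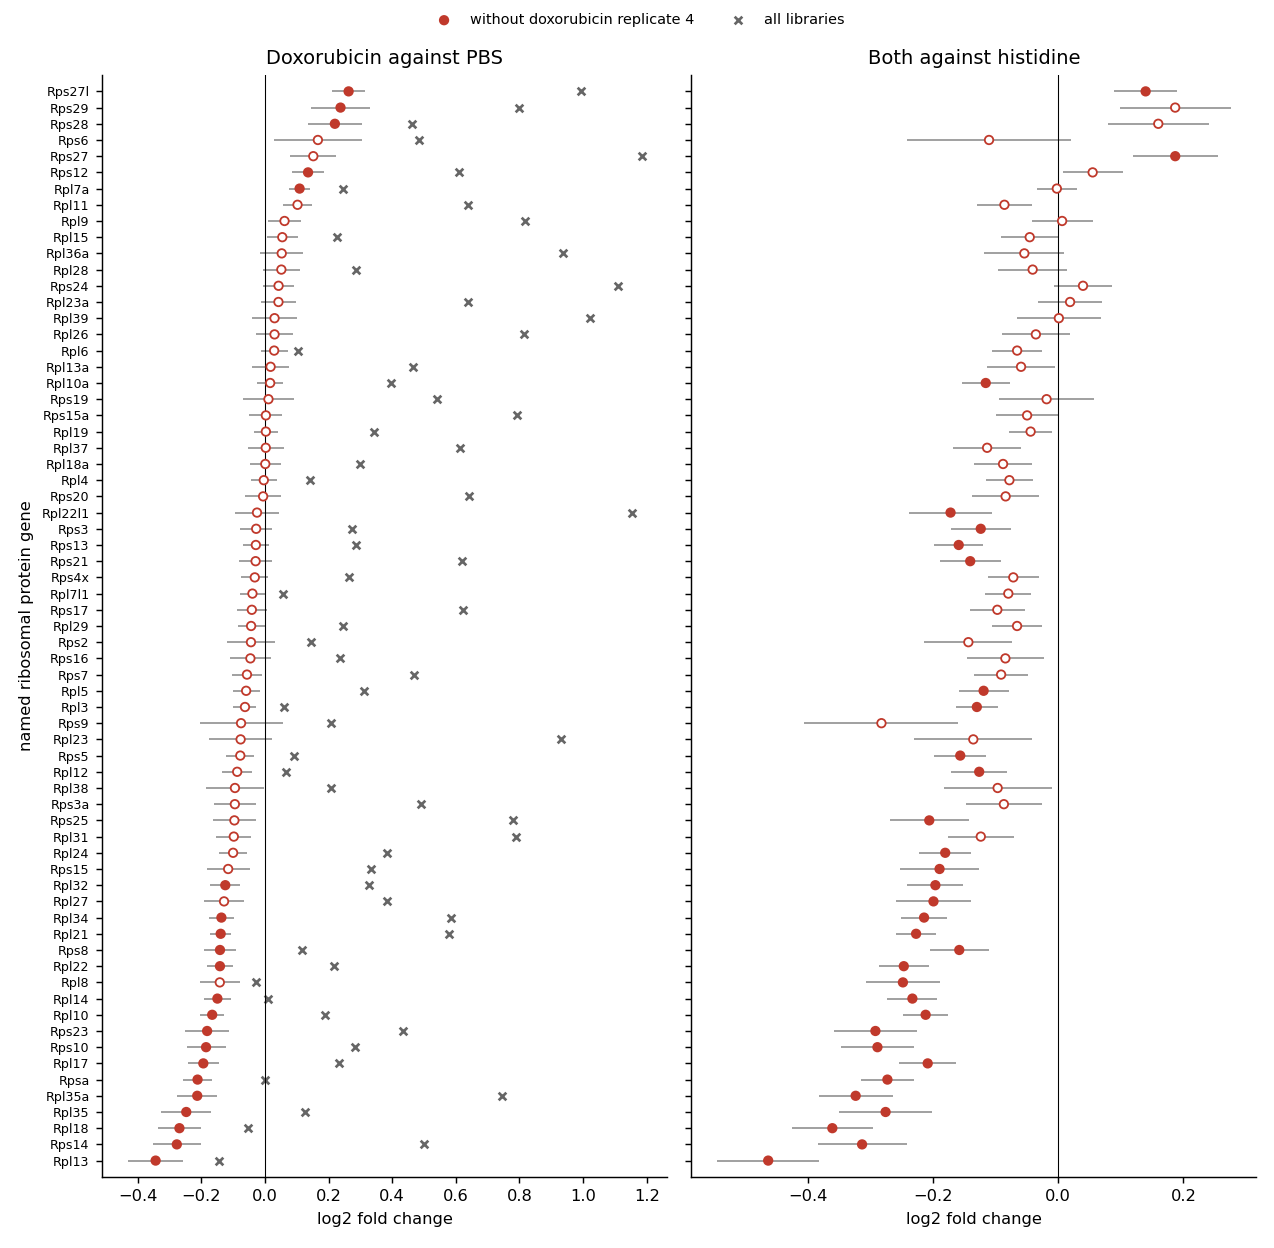
Log2 fold change of the named members in doxorubicin against PBS without doxorubicin replicate 4, and in both compounds against histidine. Bars are ±1 SE, filled points have an adjusted p under 0.05, and crosses give the value with all libraries. Without that library Rpl13 is lowest at -0.34 and Rps27l highest at 0.26, and most crosses lie to the right of 0.

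Rps27l, a stress-induced paralog of Rps27, was the named member with the clearest rise. It lies on chromosome 8 at 67562483 to 67567418 of mRatBN7.2 (ENSRNOG00000050473). PBS replicates 1 to 5 had 106, 101, 95.4, 103 and 104 CPM, and doxorubicin replicates 119, 120, 133, 525 and 117 CPM. The groups did not overlap, with or without the library at 525 CPM. The log2 fold change was 0.99 (SE 0.31, adjusted p = 0.015, edgeR) with all libraries and 0.26 (SE 0.05, adjusted p = 0.00042) without replicate 4. Histidine libraries had 110, 109, 101, 115 and 113 CPM and those with both compounds 125, 121, 109, 125 and 122 CPM, which overlapped. That difference was 0.14 (adjusted p = 0.76 with all libraries in the fit and 0.027 without replicate 4). Scaled by library totals without replicate 4 the values were 0.35 and 0.20, both called.

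Rps27, its parent, carries a zinc finger and sits on the small subunit. It had 163, 165, 158, 167 and 166 CPM with PBS and 184, 177, 195, 1134 and 174 CPM with doxorubicin. Every doxorubicin library was above every PBS library, with 1 far higher. Its log2 fold change of 1.18 (SE 0.40, adjusted p = 0.022) became 0.15 (SE 0.07, adjusted p = 0.092) without replicate 4, or 0.24 (adjusted p = 0.012) with library totals. Against histidine (174, 163, 162, 169 and 203 CPM), both compounds gave 220, 213, 169, 191 and 199 CPM, a log2 difference of 0.19 (adjusted p = 0.75 with all libraries in the edgeR fit and 0.029 without replicate 4). Those groups overlapped.

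Other small subunit members that rose without replicate 4 were Rps29 (0.24, adjusted p = 0.045), Rps28 (0.22, adjusted p = 0.041) and Rps12 (0.14, adjusted p = 0.035). Rpl7a was the only named large subunit member that rose (0.11, adjusted p = 0.013), from 618 to 650 CPM with PBS to 668, 712, 693, 1027 and 678 CPM with doxorubicin, without overlap.

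Of the 16 named members that fell, 11 were among the 39 of the large subunit and 5 among the 29 of the small subunit. In that fit 24.4% of all genes were lower. The 4 that were lower in all 4 scalings were Rpl13 and Rpl18 of the large and Rps14 and Rpsa of the small subunit. Rpl13 had the largest fall. It lies on chromosome 19 at 51153924 to 51163014 of mRatBN7.2 (ENSRNOG00000015335) and is a component of the large subunit. PBS libraries had 627, 641, 635, 691 and 665 CPM, and doxorubicin libraries 504, 518, 494, 891 and 538 CPM. Without the library at 891 CPM, all doxorubicin values were below all PBS values. The log2 fold change was -0.15 (SE 0.14, adjusted p = 0.41, edgeR) with all libraries and -0.34 (SE 0.09, adjusted p = 0.0031) without replicate 4. An entry named for Rpl13 on chromosome 10 (ENSRNOG00000064427), with at least 6.43 CPM under PBS and 4.42 to 6.93 CPM under doxorubicin, was the only member called lower with all libraries (-0.39, adjusted p = 0.011). A further Rpl13 entry on chromosome 8 (ENSRNOG00000032531) fell by 0.31 (adjusted p = 0.0047) without replicate 4. These entries can share reads with Rpl13.

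Rpsa, a small subunit protein also known as the laminin receptor, had 1364, 1374, 1415, 1426 and 1418 CPM with PBS and 1193, 1203, 1158, 2157 and 1279 CPM with doxorubicin. Outside replicate 4 the groups did not overlap. Its log2 fold change was -0.00 (SE 0.13, adjusted p = 0.99) with all libraries and -0.21 (SE 0.05, adjusted p = 0.00081) without replicate 4. Rpl18, a large subunit protein, had 491, 482, 502, 544 and 520 CPM with PBS and 412, 427, 396, 763 and 451 CPM with doxorubicin, with the same separation outside replicate 4 (-0.27, adjusted p = 0.0033; with all libraries -0.05, adjusted p = 0.78). Rps14, part of the platform of the small subunit, had 434, 454, 469, 486 and 484 CPM with PBS and 371, 395, 352, 1758 and 419 CPM with doxorubicin. There the same 4 libraries were again below all PBS libraries (-0.28, adjusted p = 0.0054), and the value with all libraries was 0.50 (adjusted p = 0.23). Scaled by library totals without replicate 4 these falls were smaller but still called, at -0.26 for Rpl13, -0.13 for Rpsa, -0.18 for Rpl18 and -0.19 for Rps14.

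Rpl10, which sits near the peptidyl transferase centre and joins the large subunit late in its assembly, had 777, 758, 773, 799 and 783 CPM with PBS. Its doxorubicin libraries had 658, 731, 678, 1660 and 706 CPM. Apart from replicate 4 they were below PBS (-0.17, SE 0.04, adjusted p = 0.0013, against 0.19 with all libraries, adjusted p = 0.42), but with library totals the value was -0.08 (adjusted p = 0.088). Rpl21 was at 0.58 (adjusted p = 0.13) with all libraries, at -0.14 (adjusted p = 0.0019) without replicate 4 and at -0.05 (adjusted p = 0.23) with totals. Where groups were compared without replicate 4, 22 members were lower and 6 higher without any overlap, against 21.9% and 19.9% of all genes.

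**Figure D5:**
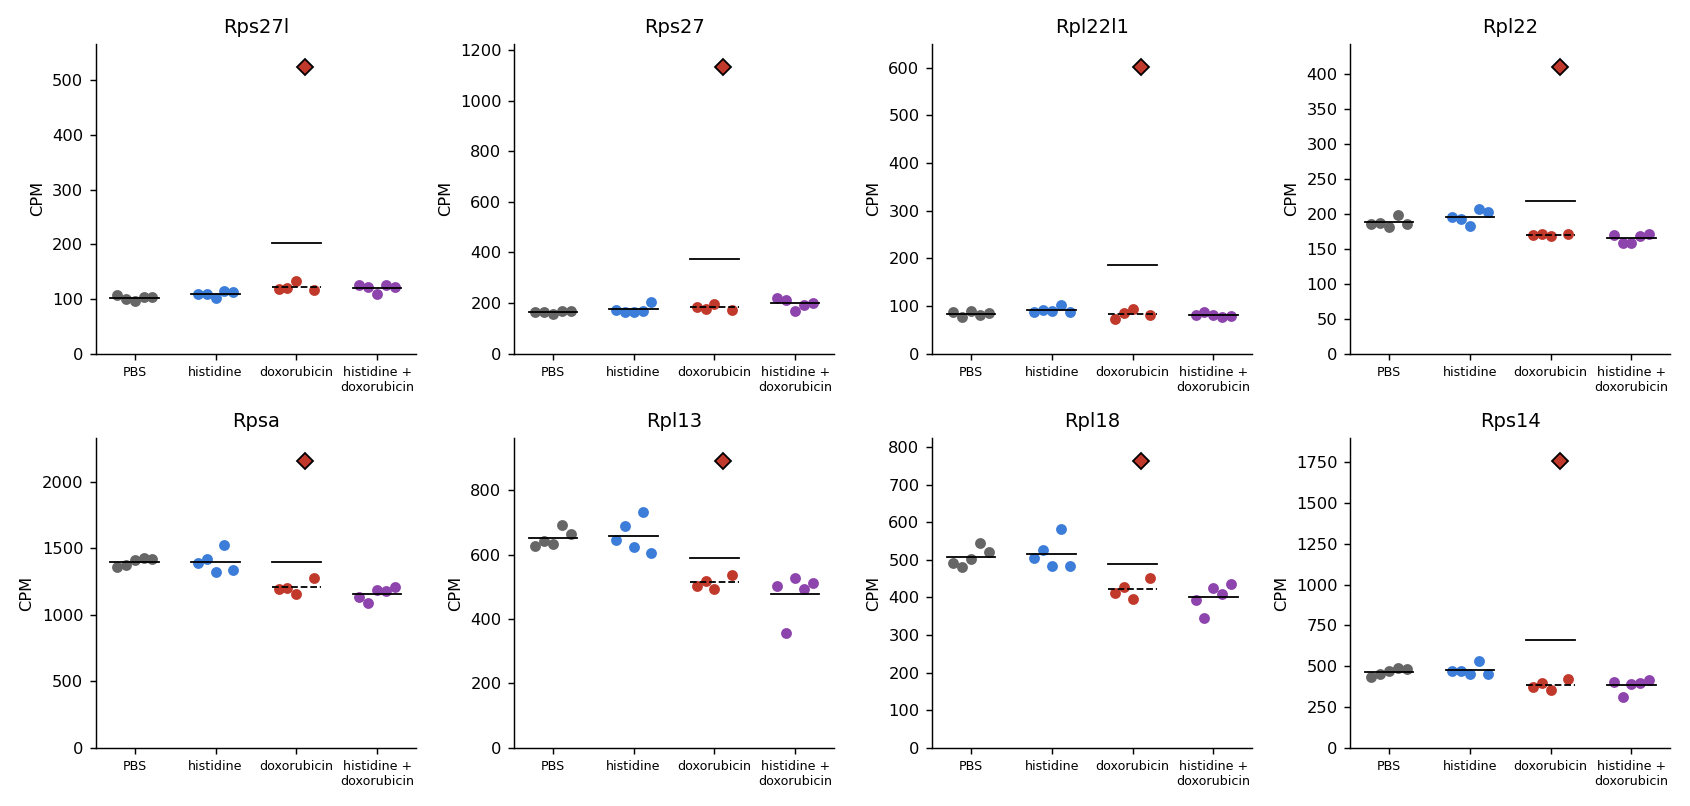
CPM of Rps27l, Rps27, Rpl22l1, Rpl22, Rpsa, Rpl13, Rpl18 and Rps14 in each library. Points are libraries, the diamond is doxorubicin replicate 4, solid lines are means of 5 and dashed lines means without it. Rpl13 sits at 627 to 691 CPM with PBS and at 494 to 538 CPM in 4 doxorubicin libraries, with the diamond at 891 CPM.

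The same comparison can be made in the presence of histidine, in libraries that share no sample with those above. Both compounds against histidine gave 2 members higher and 8 lower with all libraries, where 40.2% of all genes were called, 19.9% higher and 20.3% lower. The members' median was -0.10. None of the 10 libraries in this comparison is doxorubicin replicate 4, but it enters the shared estimate of the spread. With the spread of the fit without it, 5 members were higher and 49 lower, where 49.1% of all genes were called, 24.2% higher and 24.9% lower. The named members and the other entries differed in that fit. Of the 68 named members 2 were higher and 30 lower (47.1% called), and of 158 other entries 3 and 19 (13.9% called). Without replicate 3 as well, 54 members and 49.6% of all genes were called. With library totals 8 were higher and 30 lower, where 50.3% of all genes were called, 29% higher and 21.3% lower, so most called members were lower in each scaling. Among the named members, totals gave 5 higher and 19 lower. The count of 10 also fell when 1 library was left out, to 3, 4 and 4 without histidine replicates 1, 2 and 4 and to 5, 5, 6 and 6 without both-compound replicates 1, 2, 4 and 5.

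All 26 members that fell in doxorubicin against PBS without replicate 4 were also below 0 here, and 25 were called lower. Among all genes that fell there, 98.8% were below 0 here and 84.5% were called. Of the 10 that had risen, 8 were above 0 and 2 were called, where 80.5% of all risen genes were called. The 2 were Rps27l and an entry named for Rpl10l (ENSRNOG00000067139) on chromosome 6. That entry had 9.59, 11.7, 10.6, 9.55 and 8.52 CPM with PBS and 15.3, 12.3, 12.4, 14.7 and 13.9 CPM with doxorubicin, without overlap (0.46, adjusted p = 0.00089, edgeR). Replicate 4 was not the highest there, and the value without it was 0.43 (adjusted p = 0.0017).

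Rpl13 again had a large fall, from 606 to 733 CPM with histidine to 503, 356, 529, 493 and 511 CPM with both compounds. No library overlapped, and the log2 difference was -0.46 (SE 0.14, adjusted p = 0.011) with all libraries. The adjusted p of the next members depended on doxorubicin replicate 4: with it in the fit the differences were the same to 2 decimals, but only Rpl18 among these 5 members then passed the test. Rpsa fell from 1325 to 1527 CPM to 1087 to 1208 CPM (-0.27, adjusted p = 3.3e-05 without that replicate and 0.092 with it). Rpl22 fell from 182 to 207 CPM to 158 to 171 CPM (-0.25, adjusted p = 4.3e-05 without it and 0.32 with it). Rpl18 fell by 0.36 (adjusted p = 0.00013 and 0.041) and Rps14 by 0.31 (adjusted p = 0.0012 and 0.49). Rpl21, which had 390 to 424 CPM with histidine and 337 to 353 CPM with both compounds, had the smallest adjusted p without it (-0.23, 7.1e-06, and 0.60 with it). The 6 members called lower in both comparisons under all 4 scalings were Rpl13 with its 2 entries, Rpl18, Rps14 and Rpsa, and 17.3% of all genes were called lower in the same way.

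Both compounds against PBS, which shares its PBS libraries with doxorubicin against PBS, gave 2 members higher and 3 lower, where 39.9% of all genes were called, 19.2% higher and 20.7% lower. Without doxorubicin replicate 4 in the fit, 17 were higher and 38 lower, against 49.1% of all genes, 24.1% higher and 25% lower. Of the 68 named members 5 were higher and 21 lower there. Without replicate 3 as well, 55 members and 49.5% of all genes were called. With library totals 30 were higher and 19 lower, against 51.9% of all genes, 31.4% higher and 20.5% lower. Leaving out PBS replicate 1 took the first count of 5 to 3. Rpsa (-0.27, adjusted p = 3.5e-05), Rpl13 (-0.45, adjusted p = 0.00016) and Rpl18 (-0.34, adjusted p = 0.00026) were lowest in adjusted p without replicate 4, and Rps27l (0.24, adjusted p = 0.00048) and Rps27 (0.27, adjusted p = 0.0025) were among those higher. With all libraries in the fit Rpl13 was called (adjusted p = 0.013), and Rpl18, Rpsa, Rps27l and Rps27 were not (adjusted p = 0.055, 0.095, 0.58 and 0.63).

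Histidine alone called no member. Against PBS, edgeR called 0 members and 0% of all genes. An unadjusted p under 0.05 was reached by 4 of 226 members and by 312 of 15449 genes. The members' median log2 fold change was 0.06, against -0.00 for all genes, and it was 0.04 without histidine replicate 4. Of the 68 named members 66 lay above 0, where 7551 of 15449 genes did. The members come from the same libraries and are not independent. Without doxorubicin replicate 4 in the fit, 0 members and 0.00647% of all genes were called, and 15 members and 638 of 15454 genes had an unadjusted p under 0.05. Rps13, a small subunit protein, had 203, 200, 199, 193 and 198 CPM with PBS and 224, 216, 200, 222 and 226 CPM with histidine. Only 1 histidine library lay within the PBS range, and the value of 0.13 (SE 0.04) had an adjusted p of 1.

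Both compounds against doxorubicin called 0 members and 0% of all genes. However, 81 of 226 members had an unadjusted p under 0.05, against 1940 of 15449 genes, and the members' median was -0.43. Without doxorubicin replicate 4, 0 members and 0.0259% of all genes were called, and the members' median was 0.00. There 5 members and 1127 of 15454 genes had an unadjusted p under 0.05. This comparison shares its doxorubicin libraries with doxorubicin against PBS. The interaction, which asks whether histidine acts differently with doxorubicin than without it, called 0 members and 0% of all genes. Its median was -0.54 with all libraries, with 14 members and 1060 of 15449 genes at an unadjusted p under 0.05. Without replicate 4 it was -0.07, with 9 such members and 964 of 15454 genes.

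Among paralogs that can replace a core ribosomal protein, and their parents, the few calls without replicate 4 went in both directions. Of 16 listed paralogs and parents, 10 were matched to a named entry. With all libraries 5 of the 10 were called higher and 0 lower, against 21.7% and 21.5% of all genes. Without replicate 4 it was 1 higher (Rps27l) and 2 lower (Rpl10 and Rpl22), against 22.9% and 24.4% of all genes. The entry named for Rpl10l has no assigned symbol and is not among the 10, though it was called higher in both fits. Rpl22l1, the paralog of the RNA-binding Rpl22, had 87.3, 76.5, 89.8, 81.1 and 84.2 CPM with PBS and 72.1, 84.3, 92.5, 602 and 80.4 CPM with doxorubicin. The groups overlapped apart from the library at 602 CPM, and the log2 fold change of 1.15 (adjusted p = 0.040) became -0.03 (adjusted p = 0.80). Rpl22 had 186, 187, 182, 197 and 185 CPM with PBS and 170, 171, 168, 410 and 170 CPM with doxorubicin, a change of 0.22 (adjusted p = 0.36) with all libraries and -0.14 (adjusted p = 0.0097) without replicate 4, or -0.06 (adjusted p = 0.28) with totals. Rpl39, of the exit tunnel, and Rpl36a went from 1.02 and 0.94 with all libraries to 0.03 and 0.05 without it. Rpl3, at the peptidyl transferase centre, was at -0.06 (adjusted p = 0.17) without it, Rpl26 at 0.03, Rpl7l1 at -0.04 and Rps4x at -0.03.

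Of the 5S particle proteins, neither passed the test on TMM-scaled counts without replicate 4, and Rpl11 passed it with library totals. Rpl5 had 811, 771, 813, 830 and 815 CPM with PBS and 772, 791, 750, 1909 and 789 CPM with doxorubicin, which overlapped (-0.06, adjusted p = 0.27). Rpl11 had 366, 350, 350, 356 and 341 CPM with PBS and 361, 389, 388, 1230 and 376 CPM with doxorubicin, also with an overlap. Its value was 0.64 (adjusted p = 0.045) with all libraries and 0.10 (adjusted p = 0.076) without replicate 4, or 0.19 (adjusted p = 0.0036) with library totals. Mdm2, to which these proteins bind, and the cell cycle inhibitor Cdkn1a rose with doxorubicin. Cdkn1a went from 160 ± 10.9 CPM with PBS to 983 ± 44.0 CPM (SD, n = 4 without replicate 4; 2.62, adjusted p = 1.8e-15), and Mdm2 from 112 ± 3.92 to 481.5 ± 27.4 CPM (2.10, adjusted p = 4.0e-05).

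Members grouped by the TOP run had small differences in doxorubicin against PBS without replicate 4. The 19 members that start with the run had a median of -0.10, with 8 lower and 0 higher. The 22 with a run elsewhere within 10 bases had a median of -0.04, with 4 lower and 1 higher, and the 14 with none had -0.01, with 2 lower and 3 higher. Of all genes 22.9% were higher and 24.4% lower in that fit. In both compounds against histidine the medians were -0.12, -0.11 and -0.08, with 10 of 19, 8 of 22 and 6 of 14 lower, where 24.9% of all genes were lower. Of the 4 named members called lower in doxorubicin against PBS under all 4 scalings, Rps14 starts with the run and Rpl13 has it 1 base later. Rpsa and Rpl18 have none within 10 bases. Rps27 starts with the run and did not fall, and Rps27l has none and rose. The difference between these classes was not tested.

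Neighbouring genes of the pathway, in lists chosen by function, are given for doxorubicin against PBS without replicate 4, where 22.9% of all genes were higher and 24.4% lower. Of 7 measured ribosomal proteins outside the name rule (Rpsa is counted in both), 2 were higher and 1 lower: Rplp1, of the stalk that recruits elongation factors, rose from 621 ± 26.3 to 713 ± 31.5 CPM (0.20, adjusted p = 0.0036), Rplp0 by 0.10 (adjusted p = 0.047), and Rpsa fell. Among 15 genes of RNA polymerase I, which makes ribosomal RNA, 1 was higher and 5 lower. The initiation factor Rrn3 rose by 0.62 (adjusted p = 2.6e-08), and the subunit Polr1b fell by 0.46 (adjusted p = 3.9e-06). Of 47 ribosomal RNA processing genes 6 were higher and 13 lower, with the nucleolar factor Tcof1 at -0.65 (adjusted p = 4.5e-08) and nucleolin (Ncl) at -0.01 (adjusted p = 0.94). Of 35 assembly factors 5 were higher and 4 lower. Translation initiation factors had 3 higher and 4 lower of 33, and elongation and termination factors 1 and 2 of 10, with Eef2 at 0.03 (adjusted p = 0.71). In the mTOR and TOP control list 5 of 25 were higher and 6 lower, with Mtor at 0.24 (adjusted p = 0.00042) and Larp1 at -0.22 (adjusted p = 0.0020). Myc, an activator of ribosome genes, fell from 63.2 ± 3.71 to 42.9 ± 1.82 CPM (-0.56, adjusted p = 6.2e-07), and its list of 10 had 3 higher and 3 lower. Ribosome quality control had 7 higher and 3 lower of 20. The list on ribosomal stress, which holds several members, had 5 higher and 0 lower of 15.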

How the data were processed

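Counts and FPKM were those the authors deposited for 20 libraries: raw read counts per gene in whole numbers, and FPKM, reads scaled by gene length and library total, per the file headers. Per the labels' protocols, poly(A) RNA was fragmented and copied from random hexamers without a strand mark, so overlapping genes cannot be told apart. Per the submitters' processing notes, Trimmomatic and the build mRatBN7.2 were used. Which aligner, counter and annotation release were used is not given in the sources used here. Groups and replicate numbers came from the sample titles.

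All genes were fitted together with edgeR 4.0.16 (R 4.3.3): filterByExpr left 15449 genes (15454 without doxorubicin replicate 4), scaling was by TMM, and the quasi-likelihood F test used 1 mean per group without a replicate block, with Benjamini-Hochberg adjustment over all genes and a threshold of 0.05. Levels are TMM-scaled CPM. The script was tested on simulated counts. Alternatives were DESeq2 1.42.0 and its size factors, limma 3.58.1 on log2(FPKM + 1) and log2(FPKM + 0.1), library totals, other filters, fewer groups and leaving out libraries. Transcript length was computed from reads, FPKM and the library total. The log2 ratio of doxorubicin replicate 4 used an offset of 0.1 CPM. RefSeq's GRCr8 tables gave symbols and sequences only.

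Members and gene lists were chosen with earlier results of these data known. Named genes were those with the smallest adjusted p in each direction of a comparison with at least 5 CPM, the ends of the FPKM order, the 5S particle, paralogs and listed pathway genes; the same rule was applied without doxorubicin replicate 4, after the values were seen, as were Rpl18, Rps14, Rps12, Rps28, Rps29, Rpl6, Rps24 and Rpl23. Of 9 listed genes outside the name rule 7 were matched and of 16 paralogs and parents 10, and 15 host genes of small nucleolar RNAs were not analysed here. Results of red cell markers (1 of 2 higher), endothelial (1 of 7 higher, 4 lower), smooth muscle and pericyte (1 of 8 higher, 6 lower), fibroblast (2 of 9 higher, 3 lower) and cardiomyocyte markers (11 of 11 lower) are for doxorubicin against PBS without replicate 4. Some genes that the rule took are left out of the text and figures and are not reported here.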

Additional observations from a re-analysis of the deposited data

Results flagged for a closer look

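For each of 28 quantities and each group of 5 libraries, the gap between the highest or lowest library and its nearest neighbour was divided by the range of the group. Chance passes Dixon's critical value for 5 libraries about 1 time in 20 in a single group. A gap past it was found in 32 of 112 groups. The quantities share the same libraries, and many of the genes were named for their values here. The 112 groups are therefore not independent, and the 32 cannot be set against chance. In 25 of the 32 the library was doxorubicin replicate 4, with gaps of 0.722 to 0.992 of the range. For the summed level the gap was 0.974, and for the ratio of large to small subunit named members 0.894, the only case in which replicate 4 was the low library. Its gap was 0.961 for Rps27l, 0.978 for Rps27, 0.962 for Rpl22l1, 0.989 for Rpl22, 0.865 for Rpl3, 0.978 for Rpl39, 0.727 for Rpl7l1 and 0.972 for Rpl26. It was 0.927 for Rpl10, 0.980 for Rpl36a, 0.961 for Rps4x, 0.965 for Rpl5, 0.968 for Rpl11, 0.959 for Rpl13a, 0.973 for Rps20 and 0.769 for Rps2. For Rpl35a it was 0.992, for Rpsa 0.879, for Rpl21 0.982, for Rpl13 0.889 and for Rpl8 0.722, and for the unnamed entries of Rps29 (ENSRNOG00000028939) and Rps12 (ENSRNOG00000020093) 0.911 and 0.886.

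The other 7 gaps were in other libraries. With both compounds, replicate 2 was the low library for Rpl5 (0.806), Rpl11 (0.723), Rpl13a (0.726), Rpl13 (0.791) and Rpl8 (0.783), and replicate 3 was the low library for Rps27l (0.756). With histidine, replicate 5 was the high library for Rps27 (0.714).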

How the results depend on the processing

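The labels do not say whether libraries with the same replicate number belong together, and pairing by that number was not tested. The correlation of deviations was over 0.1 in 5 of 30 same-numbered pairs. With the replicate number as a block, members called in doxorubicin against PBS went from 33 to 19. Of 30 same-numbered pairs 8 were best matches, 5 of them the 5 pairs of histidine with doxorubicin. Correlations in those 5 were low, at 0.039 to 0.14. That grouping was picked out after the values were seen and is not in the design, so no conclusion on pairing is drawn.

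Leaving out doxorubicin replicate 4 moved the medians that use the doxorubicin group most, and counts also turned on other libraries. With each library left out in turn, the count for doxorubicin against PBS ran from 14 (without PBS replicate 2) to 68 (without doxorubicin replicate 5). It was 36 without doxorubicin replicate 4. Its median ran from -0.0386 (without doxorubicin replicate 4) to 0.55, and from 0.43 to 0.55 with the other libraries left out. The median for both compounds against doxorubicin ran from -0.55 to 0.0022 and that of the interaction from -0.63 to -0.0663, and the counts for both compounds against histidine from 3 to 54 and against PBS from 3 to 55. Without doxorubicin replicates 3 and 4 the 3 medians were -0.0395, 0.0012 and -0.0662 and the last 2 counts 54 and 55. Other settings moved counts as follows. Library totals gave 57 (doxorubicin against PBS) and 12 (both against PBS), limma with either pseudocount 13 for the latter, fits of only the groups compared 5, 43 and 56 (doxorubicin against PBS, both against histidine, both against PBS), and 1 entry per protein name 15, 4 and 2. Counting only named members without replicate 4 gave 22 of 36 and 32 of 54. Both compounds over PBS for the summed level was 1.01 with totals and 1.02 in FPKM, and the subunit ratio 0.964 in FPKM. The lists of paralogs and of ribosomal proteins outside the name rule went from 5 to 3 and from 2 to 3 calls without replicate 4.

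Gene values in doxorubicin against PBS that changed sign had these ranges over libraries left out, with the low end without replicate 4: Rpl22l1 -0.025 to 1.35, Rpl22 -0.14 to 0.30, Rpl3 -0.063 to 0.10, Rpl7l1 -0.039 to 0.0895, Rpl10 -0.17 to 0.27, Rps4x -0.032 to 0.33, Rpl5 -0.059 to 0.40, Rps20 -0.0058 to 0.78, Rps2 -0.044 to 0.21, Rpl35a -0.21 to 0.91, Rpsa -0.21 to 0.059, Rpl21 -0.14 to 0.72 and Rpl8 -0.14 to 0.014. Rpsa was 0.0041 with DESeq2 and its size factors, 0.026 with totals, 0.0024 with TMM without the members and 0.0052 with limma; Rpl8 was 0.0089 with totals and 0.0022 with limma. The cause was not tested. The interaction could not be fitted on fewer groups. Depth did not limit the named members, but 74 unnamed entries were under 5 CPM.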

Other observations

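The genes whose log2 CPM followed the mean log2 CPM of the members most closely were named by Pearson's r. That mean weights each member alike and is not the summed level. The libraries share depth and scaling, so these are descriptions. Over all 20 libraries they were B3galt4, Cox7c, Tpt1, Oscp1 and Sec61g (r of 0.99 each). Over the 19 libraries without doxorubicin replicate 4 they were B3galt4 (0.90), the proteasome subunits Psmb6 (0.90) and Psma7 (0.89), the signal peptidase subunit Sec11c (0.89) and the tubulin cofactor Tbcb (0.88). In the RefSeq gene table B3galt4 lies next to Rps18, a ribosomal protein without a named entry here.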
